A study of Mus musculus with 4 samples.

Results

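Genes of the cell division cycle were followed in the adult cervical spinal cord of mice that either had or lacked an atopic dermatitis phenotype. The members were set by gene symbol, with earlier results of these data known. They were cyclins A, B, D and E, the kinases Cdk1, Cdk2, Cdk4 and Cdk6, and the inhibitors Cdkn1b, Cdkn1c, Cdkn2b, Cdkn2c and Cdkn2d. The rest were the E2F factors, the MCM helicase subunits, the CDC25 phosphatases and a fixed set of replication and mitosis genes. The inhibitor gene Cdkn1a was outside the rule. In the platform annotation, 101 of the 45281 probes of the array carried such a symbol, and they belonged to 46 of the 19057 genes with a probe of a single symbol. Mki67 and Ccnb1 are named by the rule, but no probe carried either symbol in the annotation used here. The mice were males of the inbred strain NC/Nga, 9 weeks old, a strain in which a skin disease resembling human atopic dermatitis appears in ordinary housing. Of the 4 Illumina BeadChip arrays, 2 came from normal mice in specific-pathogen-free (SPF) housing and 2 from mice in conventional housing that were labelled with atopic dermatitis, so housing and disease cannot be told apart. Nothing in the labels ties the 2 replicates of a group to different animals, and p-values therefore measure only the spread between these RNA samples.

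A cell enters the division cycle when cyclin D with Cdk4 or Cdk6 phosphorylates the retinoblastoma protein and frees E2F factors, which switch on the genes of DNA synthesis. Cyclin E and then cyclin A with Cdk2 carry the cell into S phase, the MCM helicase unwinds the licensed origins, and cyclin B with Cdk1 drives mitosis. Inhibitor proteins of the Cip/Kip and INK4 families hold these kinases back. In the adult cord neurons and most glia do not divide, and dividing cells are mainly oligodendrocyte precursors, with some microglia, endothelial and ependymal cells. Several of the genes also act outside division, in the cell cycle exit of differentiated cells or in DNA repair.

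The tissue label was checked against defining markers. The neuronal gene Rbfox3, the motor neuron gene Chat, the myelin genes Mbp and Mog and the astrocyte genes Gfap, Aqp4 and Slc1a2 were above background on all 4 arrays. Other neuronal markers did not pass: the probes named Snap25 were not above background on any array, and Tubb3 was so on SPF replicate 2 alone. The share of all probes above background lay between 44.9% and 46.3% per array and the median signal before normalization between 113.6 and 119.4.

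The promoter letters of members described below are shown because the pathway is known for a pair of promoter elements. E2F factors bind elements resembling TTTNNCGC, and the cell cycle homology region (CHR), TTTGAA, is known from genes of G2 and mitosis that are silenced in resting cells. Windows of 250 bases before to 50 bases after the start were available for 38 of the rule's genes (RefSeq, GRCm38.p6, the reference strain and not NC/Nga). On either strand, TTTGAA stood in 13 of the 38 (34.2%), against 20.2% of the 27025 genes with a window, and TTTNNCGC in 12 (31.6%), against 5.93%. Capitals mark either motif on either strand, the windows read 5′ to 3′ along the gene, and a match of letters is a description, not a binding site. Top2a (DNA topoisomerase II alpha) and Cdk1 stand for the S to M phase genes near background, Cdc20 and Cdk2 for the genes of their roles with the largest differences, and Mcm7 for the helicase. RefSeq gives Mcm7 a further start, whose window (chr5:138171217-138171516) holds neither motif, and a gene counts as holding a motif where any of its windows does.
Top2a, chr11:99024140-99024439, minus strand: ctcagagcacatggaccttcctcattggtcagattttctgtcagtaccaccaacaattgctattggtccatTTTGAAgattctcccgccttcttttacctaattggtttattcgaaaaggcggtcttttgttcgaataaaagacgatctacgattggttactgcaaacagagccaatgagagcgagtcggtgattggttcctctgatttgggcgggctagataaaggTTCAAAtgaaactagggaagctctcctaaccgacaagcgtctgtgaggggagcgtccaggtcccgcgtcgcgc
Cdk1, chr10:69352863-69353162, minus strand: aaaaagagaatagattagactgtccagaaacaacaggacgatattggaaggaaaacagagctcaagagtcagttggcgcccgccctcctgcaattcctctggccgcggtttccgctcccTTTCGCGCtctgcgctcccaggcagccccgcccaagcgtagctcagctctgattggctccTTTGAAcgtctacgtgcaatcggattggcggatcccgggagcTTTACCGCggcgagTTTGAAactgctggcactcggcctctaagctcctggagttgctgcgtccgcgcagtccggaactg
Cdc20, chr4:118437294-118437593, minus strand: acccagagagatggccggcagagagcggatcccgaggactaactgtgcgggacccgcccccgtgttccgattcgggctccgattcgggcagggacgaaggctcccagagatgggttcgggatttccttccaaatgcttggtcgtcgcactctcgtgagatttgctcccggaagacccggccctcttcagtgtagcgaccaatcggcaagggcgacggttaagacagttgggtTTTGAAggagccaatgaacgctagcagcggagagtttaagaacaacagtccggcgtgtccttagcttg
Cdk2, chr10:128705002-128705301, minus strand: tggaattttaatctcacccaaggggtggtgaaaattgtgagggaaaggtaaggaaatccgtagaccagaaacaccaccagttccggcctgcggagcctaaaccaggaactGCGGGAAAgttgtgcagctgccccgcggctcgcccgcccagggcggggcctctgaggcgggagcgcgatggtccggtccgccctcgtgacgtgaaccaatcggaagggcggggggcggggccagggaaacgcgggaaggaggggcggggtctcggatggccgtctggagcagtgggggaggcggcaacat
Mcm7, chr5:138171834-138172133, minus strand: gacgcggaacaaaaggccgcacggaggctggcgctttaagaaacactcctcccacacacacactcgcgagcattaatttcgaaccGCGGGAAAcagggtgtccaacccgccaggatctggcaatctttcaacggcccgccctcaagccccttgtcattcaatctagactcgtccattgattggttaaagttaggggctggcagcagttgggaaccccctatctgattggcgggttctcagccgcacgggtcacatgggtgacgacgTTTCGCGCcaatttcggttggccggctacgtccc
By role, TTTGAA stood in 4 of the 5 mitosis genes with a window (Aurka, Cdc20, Mki67 and Plk1) and in 0 of 5 G1 cyclins and kinases. It stood in 3 of 6 E2F factors, 2 of 5 A and B cyclins with Cdk1 and 2 of 7 licensing genes. Among CDK inhibitors it stood in 1 of 4, among DNA synthesis genes in 1 of 4 and among CDC25 phosphatases in 0 of 2. TTTNNCGC stood in 5 of 7 licensing genes (Cdc6, Mcm3, Mcm5, Mcm6 and Mcm7) and in 0 of 5 mitosis genes. It stood in 3 of 6 E2F factors, 2 of 5 G1 cyclins and kinases, 1 of 5 A and B cyclins with Cdk1 and 1 of 2 CDC25 phosphatases. Among CDK inhibitors and among DNA synthesis genes it stood in 0 of 4.

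A probe was called above background on an array where its detection p-value, which compares it with the negative-control beads of that array, was under 0.05. Of the 101 cell cycle probes, 55 and 51 passed on the SPF arrays (54.5% and 50.5%) and 50 and 52 on the conventional arrays (49.5% and 51.5%), so the groups overlapped. Among all probes with a single gene symbol the share was 50.1% and 49.6% on the SPF arrays and 50.6% and 50.9% on the conventional arrays. Of the cell cycle probes, 44 were above background on all 4 arrays and 39 on none. With 2 arrays against 2, an exact permutation test of such counts cannot give a two-sided p below 0.333.

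**Figure D1:**
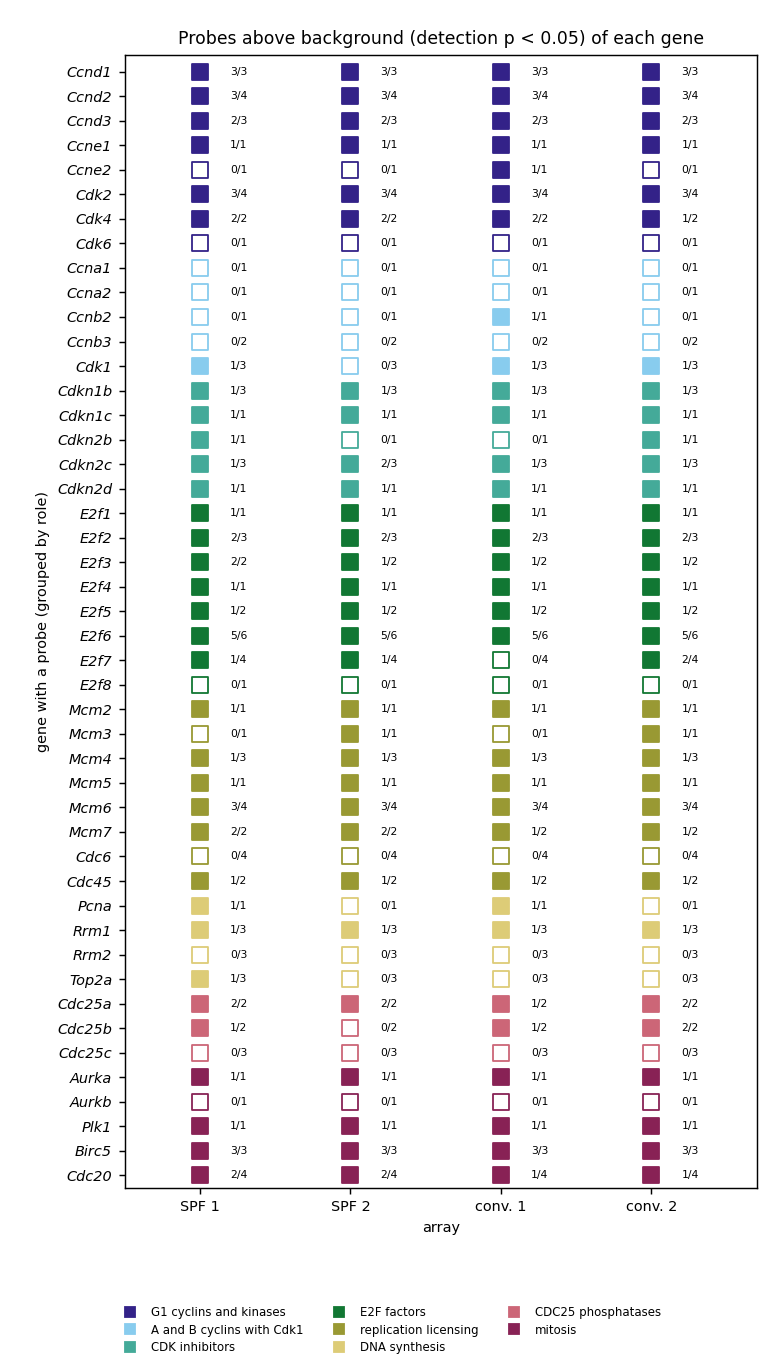
Probes above background for each of the 46 genes with a probe (rows, coloured by role) on each of the 4 arrays (columns, SPF and conventional replicates 1 and 2). A filled square means that at least 1 probe had a detection p under 0.05, and the text beside it gives probes above background over all probes of the gene. The D cyclins, E2f6 and Birc5 are filled throughout, while Ccna1, Ccna2, Ccnb3, Cdc6, Cdc25c, Rrm2, Aurkb, Cdk6 and E2f8 are empty throughout.

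Genes at or under background included several that peak from S phase to mitosis. At least 2 arrays above background were required to test a probe, and 12 of the 46 genes had no such probe. For 9 of them (Ccna1, Ccna2, Ccnb3, Cdc6, Cdc25c, Rrm2, Aurkb, Cdk6 and E2f8) 0 probes were above background on any array. These encode A- and B-type cyclins, the origin licensing factor Cdc6, the mitotic phosphatase Cdc25c, the small subunit of ribonucleotide reductase (Rrm2), the Aurora B kinase, the G1 kinase Cdk6 and the repressor E2f8. The other 3 passed on a single array, Ccne2 and Ccnb2 on conventional replicate 1 and Top2a on SPF replicate 1. The 22 probes of the 12 genes had signals between 79.4 and 128.8 before normalization.

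The signals of these genes show how near they lay to the negative controls. Ccna2, the cyclin of S and G2 phase, gave 94.1 and 109.0 in SPF and 104.9 and 108.7 in conventional cord, with detection p-values from 0.338 to 0.823. The highest of the 3 Top2a probes on SPF replicate 1 gave 120.0 there and 103.9 on the other SPF array, against 103.8 and 96.3 on the conventional arrays. Ccnb2, a mitotic cyclin, gave 112.7 and 107.7 in SPF and 118.0 and 93.3 in conventional cord. In Ccna2 and Ccnb2 the signals of the groups overlapped, while both SPF signals of the Top2a probe lay above both conventional ones and its normalized values overlapped. After normalization Ccna2 lay at 4.48 and 4.66 log2 units against 4.69 and 4.71, below the lowest level above background on any array (5.03), so its order carries no weight, and a probe at background does not show that its transcript is absent. In a bulk sample, fewer cells of a type and less RNA per cell cannot be told apart.

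The conventional and SPF groups were then compared for the 34 genes with a tested probe, with limma across all 14634 features (genes, each by its probe with the highest mean, and unnamed probes). Each difference is the conventional mean minus the SPF mean of log2 signals after background correction and quantile normalization, errors are standard errors of the model, and n is 2 arrays per group throughout. None of the 34 passed a Benjamini-Hochberg adjusted p of 0.05 in limma (0 of 14634 features, 0%), and the adjusted p of every one was 1. At an unadjusted p under 0.05, limma gave 2 of the 34, Cdkn1c and Ccnd1, against 443 of all features (3.03%). Both lay lower in conventional cord, a direction taken at that p by 1.72% of all features, with 1.31% on the higher side. All values below are therefore descriptions of these arrays.

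Of the 34 tested genes, 25 lay lower and 9 higher in conventional cord (73.5% lower, against 50.1% of all features), with a median difference of -0.13 against -0.00032 over all features. The members were chosen with earlier results of these data known, so these shares were not tested. The median difference of the 34 genes was -0.07 without background correction and -0.04 in the authors' deposited value table. Both conventional arrays lay below both SPF arrays in 9 of the 34 (26.5%, against 15.1% of all features) and above them in 3 (8.82%, against 15.6%). A filter on detection can pass a gene through its brighter group, so the count was repeated under other filters. Of the 28 genes whose probe was above background on all 4 arrays, 22 lay lower and 6 higher, against 49.9% of such features lower. That set was chosen after seeing the data. Without a filter, 33 of all 46 genes with a probe lay lower and 13 higher, against 49.7% of features lower. The median level of the 34 genes was 6.40 and 6.55 log2 units on the SPF arrays and 6.24 and 6.48 on the conventional arrays, so these medians overlapped. With single arrays left out, 22 to 25 genes lay lower, against 48.1% to 51.3% of all features.

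**Figure D2:**
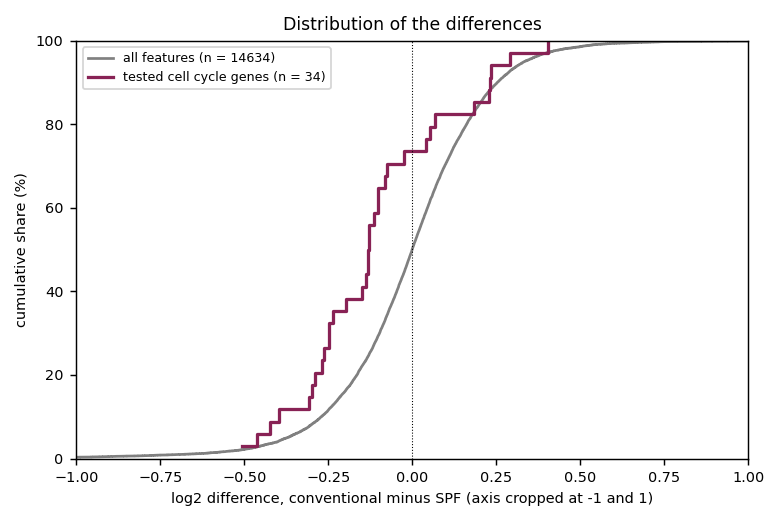
Cumulative share (y axis, percent) of log2 differences, conventional minus SPF (x axis, cropped at -1 and 1), for all 14634 features (grey) and for the 34 tested cell cycle genes (purple). The purple curve reaches 73.5% at a difference of 0, where the grey one reaches 50.1%.

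**Figure D3:**
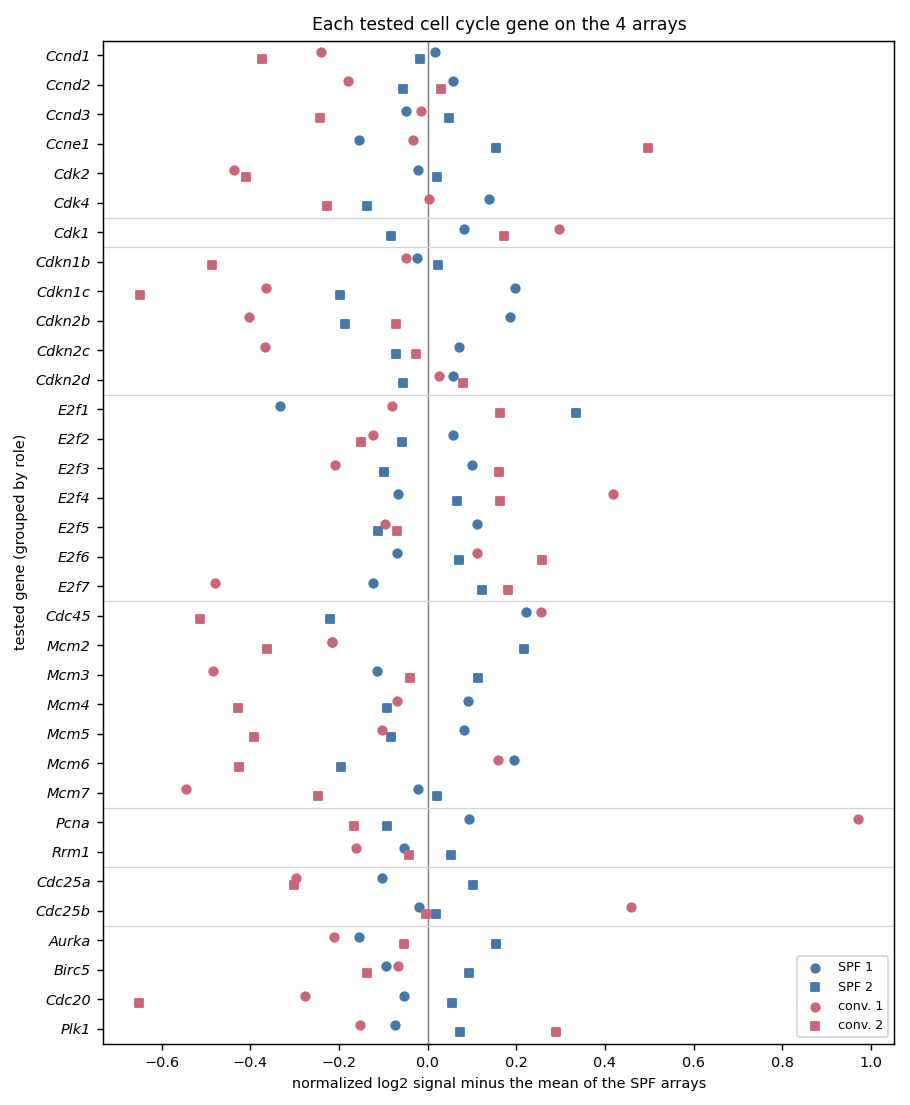
Normalized log2 signal of each of the 34 tested genes on each array, minus the mean of the SPF arrays (x axis), with genes grouped by role (y axis). Blue points are SPF and red points conventional arrays, circles replicate 1 and squares replicate 2. In Cdk2 and Ccnd1 both red points lie to the left of both blue ones, and Pcna has 1 red point far to the right.

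Among the G1 cyclins and kinases, 5 of 6 tested genes lay lower in conventional cord, against 50.1% of all features, and 0 passed limma's adjusted test. Ccnd1, which encodes cyclin D1, stood at 10.51 and 10.48 log2 units on the SPF arrays and at 10.25 and 10.12 on the conventional arrays. The groups did not overlap, and the difference of -0.31 ± 0.12 (1.24-fold lower, 95% interval from -0.59 to -0.02) had an unadjusted limma p of 0.0382. The further 2 kept probes of Ccnd1 gave -0.15 ± 0.12 and -0.27 ± 0.20, and in each of them both conventional arrays also lay below both SPF arrays.

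Cdk2, the kinase partner of cyclins E and A, stood at 7.60 and 7.65 in SPF and at 7.19 and 7.21 in conventional cord. The arrays of each group lay close together and the groups apart, with a difference of -0.42 ± 0.18 (1.34-fold lower) and an unadjusted limma p of 0.0515. It was -0.28 without background correction and -0.17 in the authors' deposited value table. Its other kept probes differed in sign, at -0.40 ± 0.31 and 0.10 ± 0.22, so the value belongs to its probe. The difference of the first of these rested on conventional replicate 2, at 5.37 against 6.25 on conventional replicate 1.

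Ccnd2, which encodes cyclin D2, stood at 7.33 and 7.22 in SPF and at 7.09 and 7.30 in conventional cord, and the groups overlapped (-0.07 ± 0.20, and 0.030 without conventional replicate 1). A second probe of the same transcript gave -0.19 ± 0.21 and a probe for a cDNA clone -0.59 ± 0.22, the latter at 5.93 and 5.64 against 5.11 and 5.27. Ccnd3 (-0.13 ± 0.14) and Cdk4, the kinase partner of the D cyclins (-0.11 ± 0.18), had overlapping groups. Their other kept probes gave 0.26 ± 0.26 for Ccnd3 and -0.54 ± 0.22 for Cdk4, so probes of 1 gene differed by more than the genes did. Ccne1, which encodes cyclin E1, was the member on the higher side, at 6.16 and 6.47 in SPF and 6.28 and 6.81 in conventional cord (0.23 ± 0.26). Its groups overlapped, and without conventional replicate 2 the difference was -0.034.

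**Figure D4:**
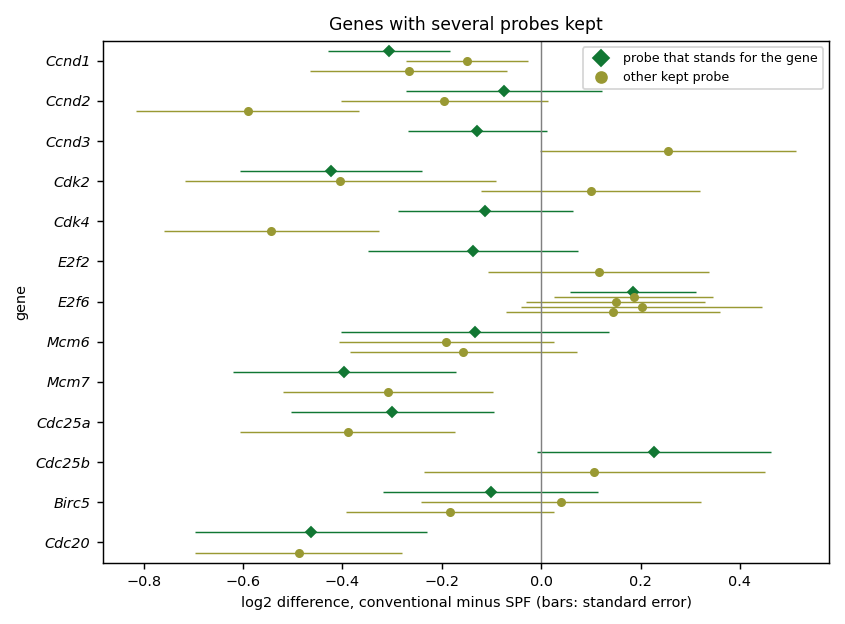
Log2 difference, conventional minus SPF (x axis, with standard errors as bars, n = 2 arrays per group), of each kept probe of the 13 genes that had several. Diamonds are the probes that stand for the gene and circles the others. Probes of Mcm7, Cdc20 and Cdc25b that were kept through the group in which they are high are plotted as well. The 5 probes of E2f6 lie together to the right of 0 and the 3 of Ccnd1 to the left, while the probes of Ccnd3, Cdk2, E2f2 and Birc5 fall on both sides of 0.

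The kinase inhibitors of the rule lay lower in 4 of 5 genes, against 50.1% of all features, again with 0 past the adjusted test of limma. Cdkn1a, an inhibitor gene outside the rule, lay higher in conventional cord (0.76 ± 0.16) and is described with the other lists. Cdkn1c encodes p57, an imprinted Cip/Kip inhibitor known for cell cycle exit during development. It stood at 12.30 and 11.91 in SPF and at 11.74 and 11.46 in conventional cord. The groups did not overlap and the difference was -0.51 ± 0.17 (1.42-fold lower, 95% interval from -0.90 to -0.12), with an unadjusted limma p of 0.0183. Leaving out SPF replicate 2 gave -0.71, and leaving out SPF replicate 1 gave -0.31. Cdkn1b, which encodes p27, the inhibitor that keeps resting glia and neurons out of the cycle, stood at 5.93 and 5.98 in SPF and at 5.90 and 5.47 in conventional cord. Its difference of -0.27 ± 0.24 lay mainly on conventional replicate 2, and without that array it was -0.05. The other probes of Cdkn1b were not above background on any array.

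Of the INK4 inhibitors of Cdk4 and Cdk6, Cdkn2b stood at 5.33 and 4.95 in SPF and at 4.74 and 5.07 in conventional cord, with overlapping groups (-0.24 ± 0.24). It was above background on 1 array of each group. Cdkn2c differed by -0.20 ± 0.22 and Cdkn2d by 0.05 ± 0.16, both with overlapping groups. The difference of Cdkn2b was -0.05 without SPF replicate 1.

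The E2F factors were mixed, with 3 of 7 tested genes higher and 4 lower. E2f4, a factor known mainly as a repressor in resting cells, stood at 7.21 and 7.34 in SPF and at 7.69 and 7.44 in conventional cord (0.29 ± 0.20). E2f6, a repressor that does not depend on the retinoblastoma protein, stood at 10.46 and 10.60 in SPF and at 10.64 and 10.79 in conventional cord (0.19 ± 0.12). In both genes the groups did not overlap, and in neither was the unadjusted limma p under 0.05 (0.182 and 0.179). The difference of E2f4 was 0.16 without conventional replicate 1, and that of E2f6 was 0.11 without conventional replicate 2. All 5 kept probes of E2f6 lay higher in conventional cord, between 0.15 and 0.20. E2f7, which encodes a repressor, stood at 4.99 and 5.24 in SPF and at 4.63 and 5.30 in conventional cord (-0.15 ± 0.27), above background on 1 array of each group. Without conventional replicate 1 its difference was 0.18. The activators E2f1 (0.04 ± 0.25), E2f2 (-0.14 ± 0.21) and E2f3 (-0.02 ± 0.23) and the repressor E2f5 (-0.08 ± 0.17) differed by less than their standard errors. By that probe of E2f2 both conventional arrays lay below both SPF arrays, while its other kept probe gave 0.12 ± 0.22 with overlapping groups.

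All 7 tested genes of replication licensing lay lower in conventional cord, with a median difference of -0.25 and 0 past the adjusted test, and in 2 of them (Mcm5 and Mcm7) both conventional arrays lay below both SPF arrays. Over all features, 50.1% lay lower and 15.1% did so without overlap. Mcm7, a subunit of the helicase that unwinds origins, stood at 5.94 and 5.99 in SPF and at 5.42 and 5.72 in conventional cord (-0.40 ± 0.22, 1.32-fold lower, unadjusted limma p of 0.113). Leaving out conventional replicate 1 gave -0.25, and the difference was -0.15 without background correction. Its other kept probe passed on both SPF arrays and on neither conventional array, so it was kept through the group in which it is high and its difference is not given. Mcm2 stood at 6.19 and 6.62 in SPF and at 6.19 and 6.04 in conventional cord, and only SPF replicate 2 stood apart (-0.29 ± 0.24, and -0.07 without that array). Mcm3 stood at 5.01 and 5.24 in SPF and at 4.64 and 5.08 in conventional cord (-0.26 ± 0.24). It was above background on 1 array of each group, and without conventional replicate 1 the difference was -0.04.

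The other licensing genes, Mcm4 (-0.25 ± 0.16), Mcm5 (-0.25 ± 0.21), Mcm6 (-0.13 ± 0.27) and the helicase cofactor Cdc45 (-0.13 ± 0.31), were above background on all 4 arrays by the probe given. The other probes of Mcm4 and Cdc45 were not above background on any array. All 3 kept probes of Mcm6 lay lower, between -0.19 and -0.13. Leaving out SPF replicate 1 or conventional replicate 2 left 5 of the 7 genes lower. The median difference of the list was then -0.17 and -0.10, and it was -0.39 when conventional replicate 1 was left out.

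Of the DNA synthesis genes, Pcna and Rrm1 were tested. Pcna, which encodes the sliding clamp of DNA polymerase and also serves DNA repair, stood at 5.14 and 4.95 in SPF and at 6.01 and 4.88 in conventional cord. Its difference of 0.40 ± 0.37 lay on conventional replicate 1 alone, and without that array it was -0.17. On that same array the summed signal of 7 neutrophil and myeloid precursor genes (S100a8, S100a9, Ngp, Camp, Ltf, Mpo and Elane) was 3638, against 840 to 1229 on the other 3, and their part in the Pcna value was not tested. Rrm1, the large subunit of ribonucleotide reductase, stood at 7.76 and 7.87 in SPF and at 7.65 and 7.77 in conventional cord, with overlapping groups (-0.10 ± 0.18, and -0.04 without conventional replicate 1). The other probes of Rrm1 were not above background on any array.

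Cdc25a and Cdc25b were the tested CDC25 phosphatases, which activate the kinases. Cdc25a, of the G1 to S transition, stood at 6.98 and 7.18 in SPF and at 6.78 on both conventional arrays (-0.30 ± 0.20, unadjusted limma p of 0.178, and -0.20 without SPF replicate 2). Its other kept probe gave -0.39 ± 0.22 and was above background on 1 of the conventional arrays. Cdc25b, of entry into mitosis, stood at 5.03 and 5.07 in SPF and at 5.50 and 5.04 in conventional cord, with overlapping groups. On neither SPF array was that probe above background, so it was kept through the group in which it is high. Its difference was therefore taken against a floor. On each SPF array the floor was the lowest signal above background or the probe's own, whichever is higher. Against it the conventional mean lay 1.15-fold higher, but this rested on conventional replicate 1 alone. Conventional replicate 2, at 5.04, lay below SPF replicate 2, at 5.07, so no minimum difference is given. The other kept probe of Cdc25b was above background on SPF replicate 1 and conventional replicate 2, at 5.53 and 4.67 in SPF against 4.89 and 5.53 in conventional cord, and its groups overlapped (0.11 ± 0.34). Without conventional replicate 1 the difference of the first probe was -0.0029.

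Of the 5 mitosis genes with a probe, 4 were tested, 1 higher and 3 lower (50.1% of all features lay lower). Cdc20, which activates the anaphase-promoting complex, stood at 5.93 and 6.04 in SPF and at 5.71 and 5.34 in conventional cord. The groups did not overlap (-0.46 ± 0.23, 1.38-fold lower, unadjusted limma p of 0.0825). The difference was -0.28 without conventional replicate 2, -0.65 without conventional replicate 1 and -0.18 without background correction. A second kept probe passed on both SPF arrays and on neither conventional array, and its difference is not read as a result for the reason named for Mcm7. Aurka, the Aurora A kinase of the spindle poles, stood at 5.57 and 5.88 in SPF and at 5.51 and 5.67 in conventional cord (-0.13 ± 0.22, and 0.022 without SPF replicate 2). Birc5, which encodes survivin of the chromosomal passenger complex, stood at 5.87 and 6.06 in SPF and at 5.90 and 5.83 in conventional cord (-0.10 ± 0.21, and -0.0090 without SPF replicate 2). In both, and in the mitotic kinase Plk1 (0.07 ± 0.24), the groups overlapped. Further kept probes of Birc5 gave 0.04 ± 0.28, with overlapping groups, and -0.18 ± 0.21, with both conventional arrays below both SPF arrays.

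Cdk1, the kinase of mitosis, was the only tested gene among the A and B cyclins and their kinase. Its kept probe stood at 5.12 and 4.96 in SPF and at 5.34 and 5.21 in conventional cord, above background on 1 SPF array and both conventional arrays. The groups did not overlap, and the difference was 0.23 ± 0.21 (0.15 without SPF replicate 2). Its other 2 probes were not above background on any array.

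Genes of the pathway outside the rule were counted in 5 lists, each with 0 past the adjusted test of limma, and 50.1% of all features lay lower. Of 13 pocket protein and checkpoint genes, 10 were tested, 3 higher and 7 lower. The inhibitor gene Cdkn1a, which encodes p21, was the one with the largest difference, at 8.17 on both SPF arrays and at 9.04 and 8.83 in conventional cord (0.76 ± 0.16, unadjusted limma p of 0.00186). It lay opposite in direction to Cdkn1b and Cdkn1c of the same family. Rbl1 (-0.26 ± 0.31) and Atr (-0.19 ± 0.27) had the next largest differences, both with overlapping groups.

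Of 24 origin and replication genes, 17 were tested, 7 higher and 10 lower, led by Tyms (0.55 ± 0.22), Rpa2 (-0.31 ± 0.25) and Gins1 (-0.31 ± 0.23). Tyms encodes thymidylate synthase, and its groups did not overlap, at 5.96 and 5.74 in SPF against 6.47 and 6.32 in conventional cord. Of 24 spindle and kinetochore genes, 12 were not above background on any array, and 10 were tested, 3 higher and 7 lower. Cenpa, the centromeric histone gene, stood at 7.25 and 7.36 in SPF and at 6.85 and 6.84 in conventional cord (-0.46 ± 0.19, unadjusted limma p of 0.0479). Nusap1 passed on both SPF arrays and on neither conventional array, which makes it at least 1.18-fold lower there (a bound set on each conventional array by the lowest signal above background or the probe's own, whichever is higher), and Cdca3 differed by -0.31 ± 0.21.

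Of 16 genes of the anaphase-promoting complex and the CDK-activating kinase, 14 were tested, 4 higher and 10 lower, with a median of -0.06 and the largest differences in Cdc27 (-0.27 ± 0.22), Anapc7 (-0.15 ± 0.16) and Anapc11 (-0.14 ± 0.22). Of 12 genes of quiescence and of cyclins and kinases listed here as non-cycling, 11 were tested, 4 higher and 7 lower. Ccni (0.42 ± 0.22), the neuronal kinase Cdk5 (0.33 ± 0.15) and Ccnc (0.24 ± 0.15) lay higher on both conventional arrays. Over all features, 15.6% lay higher without overlap.

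Markers of cells that divide in the cord, or that could be carried into it, moved between arrays as well. Summed signals of the 7 oligodendrocyte precursor genes were 15215 and 12948 in SPF and 12342 and 13420 in conventional cord, with 2 genes higher and 5 lower. Pdgfra, their defining receptor, stood at 9.44 and 9.46 in SPF and at 9.18 and 9.21 in conventional cord (-0.25 ± 0.13), and Cspg4 went the other way (0.48 ± 0.24). Microglial genes summed to 1685 and 1239 against 1413 and 1069 (5 tested, 4 lower), ependymal genes to 556 and 634 against 568 and 646 (4 tested, 2 lower), and endothelial genes to 3604 and 5038 against 5280 and 5412 (6 tested, 4 higher).

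The widest ranges belonged to tissue that borders or fills the cord. Meningeal fibroblast genes summed to 5084 and 22745 in SPF and to 7690 and 2433 in conventional cord, with all 7 tested genes lower and Col3a1 not above background. Red blood cell genes summed to 43143 and 29548 against 21194 and 13063, with all 5 tested genes lower in the mean. Slc4a1 had overlapping groups, at 7.64 and 7.68 in SPF and 8.23 and 5.73 in conventional cord. Skeletal muscle genes summed to 1137 and 353 against 457 and 267 (4 tested, all lower). Among them Ckm passed on both SPF arrays and on neither conventional array, so it was kept through the group in which it is high. The 7 neutrophil genes all had a higher conventional mean, with the highest sum on conventional replicate 1. Of the lymphocyte markers only Cd3e was tested (0.10 ± 0.25), Ms4a1 and Ptprc were not above background on any array, and no probe carried the symbol Cd79a. Cdkn1c followed the order of the red blood cell sums over the 4 arrays, as did Ccnd1, Mcm5 and E2f2 by the probe that stands for each. The other kept probes of Ccnd1 and E2f2 did not take that order, and its share over all features was not counted. The part of any of these cells in the cell cycle values was not tested. Genes of neurons, oligodendrocytes and astrocytes summed in SPF against conventional cord to 6427 and 6188 against 6058 and 6641, to 33768 and 32800 against 32038 and 32729, and to 31979 and 19528 against 36422 and 20585.

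**Figure D5:**
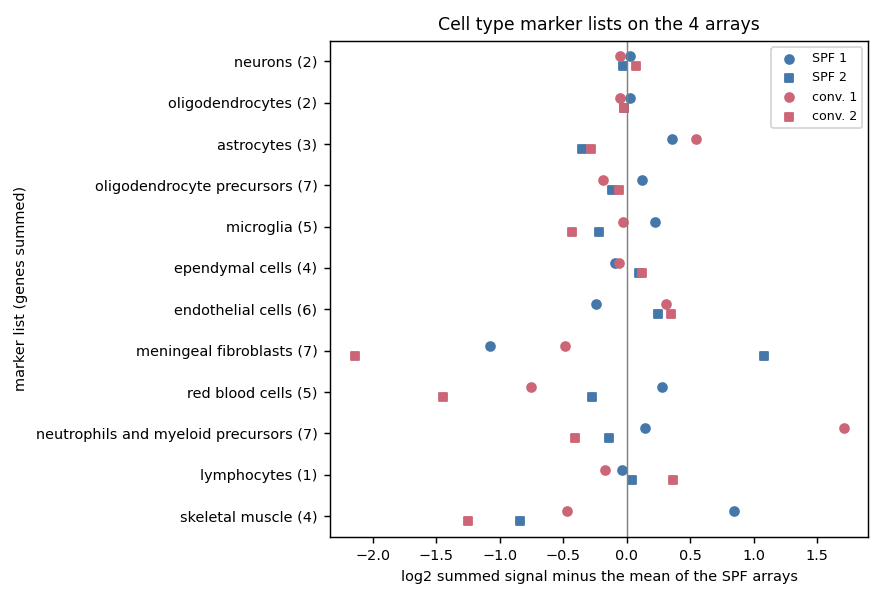
Log2 of the summed signal of each cell type marker list (y axis, with the number of genes summed) on each array, minus the mean of the SPF arrays (x axis). Blue points are SPF and red points conventional arrays, circles replicate 1 and squares replicate 2. The red blood cell sum is lower on both conventional arrays, while the meningeal fibroblast points of the groups interleave and the neutrophil sum is high on conventional replicate 1.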

How the data were processed

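Total RNA of 4 cord samples was hybridised to Illumina BeadChip arrays. The signals the authors deposited are intensity values on a linear scale, not normalized per the file headers, and the detection p-value beside each is likewise deposited. The authors' value table served as an alternative. It holds normalized intensity values with column medians of 216.5 to 216.6, and within each array it ranks the probes as the deposited signals do. The submitters' processing notes name lumi, and its settings stay unknown, as does the transformation of that table. Groups and replicates come from the titles.

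Background correction, quantile normalization and log2 transformation used limma's neqc with an offset of 16 (limma 3.58.1 under R 4.3.3). Probes with a detection p under 0.05 on at least 2 arrays were kept (21065 probes, 55 of them of cell cycle genes). Of 45281 probes, 34885 carry 1 symbol, 18 several and 10378 none. All 101 cell cycle probes matched a RefSeq gene number and 0 symbols changed. limma's moderated model (eBayes with a trend), two-sided, was fitted over 14634 features with Benjamini-Hochberg adjustment at 0.05. Values of a gene's further probes come from the same model over all kept probes. The number of arrays limits the precision.

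The members, role lists and tests were chosen with earlier results of these data known. Genes given with values on each array are those with an unadjusted p under 0.05, the 3 of largest absolute difference in each role, and Top2a, Pcna, Ccnd1, Ccnd2, Cdk1, Cdkn1b and Cdkn1c. Mki67 was also named by the rule and has no probe. Other lists give their 3 members of largest difference. Ccna2, Ccnb2, Pdgfra and further probes were picked after their values were seen. Alternatives covered background correction, normalization, the authors' table, detection filters, probes, variance models, the replicate number, thresholds and single arrays.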

Additional observations from a re-analysis of the deposited data

How the results depend on the processing

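The lack of calls among the cell cycle genes held in every alternative run with an adjusted threshold, where 0 passed, and with an unadjusted p under 0.05 limma called 2 of them and 443 features. Over all features, 0 passed except with the replicate block (5) and without conventional replicate 2 (2). Leaving out 1 array gave 0 to 2 features past the threshold, medians of the tested cell cycle genes from -0.14 to -0.10, and 9 to 12 of them higher. The median was -0.04 with the authors' value table, -0.07 without background correction and -0.17 with median scaling, where the median of all features was -0.04 and 58.7% of features lay lower. The count of higher genes was 5 of 24 with a detection p under 0.01 on all 4 arrays, a filter that leaves fewer genes tested, and 9 of 34 otherwise, or 7 with median scaling, 10 with the mean of a gene's probes, 13 of 46 without a filter and 6 of 28 among genes above background on all arrays, the last chosen after seeing the data. Of 287 values of the 21 genes with values on each array, 6 changed sign, each with 1 array left out. With single arrays left out, Aurka ranged from -0.29 to 0.022, Ccnd2 from -0.18 to 0.030, Cdc25b from -0.0029 to 0.46, E2f7 from -0.48 to 0.18, Pcna from -0.17 to 0.97 and Ccne1 from -0.034 to 0.50. With a detection p under 0.01, 39 and 37 cell cycle probes passed on the SPF arrays and 41 and 40 on the conventional arrays. The replicate numbers name no shared animal, and deviations of equal numbers correlated at 0.198, so the block is given only here. Without background correction the differences were -0.18 for Cdc20, -0.15 for Mcm7 and -0.50 for the bright Cdkn1c, and in the authors' table -0.08, -0.07 and -0.51. How the authors treated background was not given in the sources used here.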
